A study of Mus musculus with 6 samples.

Results

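The LIF receptor, STAT3 and feedback genes are 10 genes of the signalling route by which leukaemia inhibitory factor (LIF) keeps mouse embryonic stem (ES) cells undifferentiated: Lif, Lifr, Il6st, Osmr, Jak1, Stat3, Socs3, Pim1, Pim3 and Bcl3. They were chosen by symbol, as the probe sets annotated with exactly 1 gene symbol equal to a member, and all 10 were found among the 19938 genes measured, on 11 probe sets. Socs3 had 2 probe sets and each other gene had 1, and the brighter of the Socs3 probe sets, by its mean of the 6 arrays, stands for the gene. Expression was measured on 1-colour arrays in 3 samples of Satb1-/- mouse ES cells (labelled clones 1-1, 1-2 and 2-1) and 3 samples of WT mouse ES cells (numbered 1, 2 and 3). SATB1 binds DNA and helps to fold chromatin into loops. Cells of both genotypes carried a hygromycin-resistance and thymidine kinase (HygroTK) marker in the Oct4 locus, were kept in medium with LIF and 15% serum, and spent 3 days on an irradiated feeder layer under hygromycin, so that Oct4-expressing cells were selected. The labels give neither the strain of the cells nor what the first number in a clone name stands for. Feeders were reduced by sedimentation before total RNA was extracted. Whether the samples of a group were separate cultures is not stated, so a p-value here speaks only of the spread among these samples, part of which may be technical.

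LIF binds the receptor LIFR, which pairs with the shared signalling chain gp130, the product of Il6st. Janus kinases held on the receptor tails, JAK1 foremost in ES cells, then phosphorylate the transcription factor STAT3, which moves to the nucleus and switches on target genes. Among these targets are Socs3, whose protein binds gp130 and shuts the kinases down, the serine/threonine kinase genes Pim1 and Pim3, which favour self-renewal of ES cells, and Bcl3, which encodes an atypical member of the IkB family. Osmr encodes the receptor chain for oncostatin M, a relative of LIF that also signals through gp130. Since LIF was added to every culture, the comparison addresses whether the transcripts of this route differ in ES cells that lack Satb1 while the ligand is supplied.

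STAT3 binds the DNA motif TTCNNNGAA, which reads the same on both strands. The promoter windows of RefSeq (build GRCm38.p6, 250 bases before to 50 after each transcript start) were searched for it, and all 10 genes had an entry. Socs3 was the only one of the 10 genes with a match. Among all 27025 genes with an entry, 9.55% had one and of the 38 related genes with an entry, from the 5 lists used below, 7 had one (18.4%). These windows are printed below because they set the feedback gene Socs3 beside those 7 genes, 5′ to 3′ on the strand of the gene, with the motif in capitals.
Socs3, chr11:117969502-117969530, minus strand: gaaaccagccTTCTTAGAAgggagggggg
Cish, chr9:107296655-107296682, plus strand: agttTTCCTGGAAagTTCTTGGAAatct
Gab1, chr8:80880473-80880501, minus strand: ccggaggagtTTCAGAGAAagtctgggct
Icam1, chr9:21015888-21015916, plus strand: ggcgcgaggtTTCCCGGAAagtggccccg
Il31ra, chr13:112580835-112580863, minus strand: cctgaagggtTTCCAGGAAattgtgataa
Irf1, chr11:53769914-53769942, plus strand: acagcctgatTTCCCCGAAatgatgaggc
Sgk1, chr10:21881951-21881979, plus strand: gaaaaaccaaTTCAAAGAAccctcccaag
Zfp36, chr7:28379227-28379255, minus strand: acagcctgacTTCTGCGAAccgacagtcg
In the Socs3 window the motif began 154 bases before the start. A match is a sequence of letters and does not show binding. The search covered only these windows, and the genes were listed for their match after the search, so Gab1, Icam1, Il31ra, Irf1, Sgk1 and Zfp36 lie outside the rule by which genes were named.

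Of the 10 genes, 1 was higher in Satb1-/- cells and none was lower (limma over all genes, Benjamini-Hochberg adjusted p under 0.05). Of all genes tested, 0.923% were called higher and 0.476% lower. The higher gene was Socs3. At an unadjusted p under 0.05, 3 of the 10 genes were higher (Socs3, Lifr and Bcl3) and 0 lower, where 5.92% and 4.55% of all genes were. In the same 3 genes all Satb1-/- arrays lay above all WT arrays, which was so for 8.18% of all genes, and in none of the 10 did they all lie below, which was so for 6.97%. The difference was above 0 for 8 of the 10 genes, against 48.5% of all genes. The median log2 difference of the 10 genes was 0.21, against -0.0044 over all genes and 0.019 over the genes brighter than the median gene, among which all 10 fall. Of those 9969 brighter genes, 1.7% were called higher, 9.94% were higher at an unadjusted p under 0.05, 11.7% had all Satb1-/- arrays above all WT arrays and 53.9% had a difference above 0. Throughout, values are the authors' log2 expression values and differences are Satb1-/- minus WT in log2 units with their standard error (SE). In such bulk RNA, more or fewer cells of a type and more or less RNA per cell cannot be told apart.

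**Figure D1:**
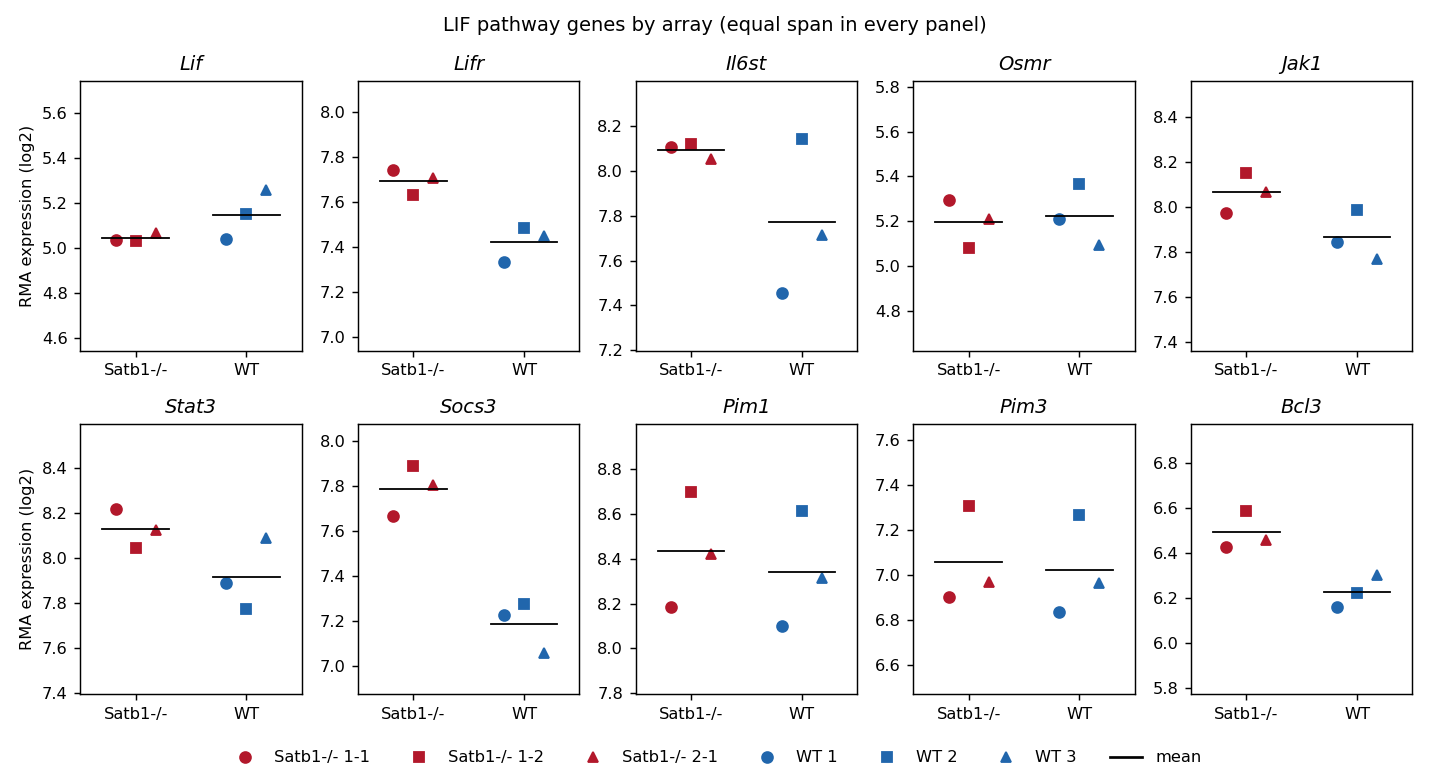
RMA expression (log2) of the 10 LIF pathway genes on each array, with 3 Satb1-/- arrays on the left and 3 WT arrays on the right of each panel; marker shapes tell the arrays of a group apart and black lines are group means. Socs3, Lifr and Bcl3 have every Satb1-/- array above every WT array, and in the other 7 genes the groups overlap.

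The ligand gene Lif read 5.04, 5.03 and 5.06 in Satb1-/- arrays 1-1, 1-2 and 2-1, against 5.04, 5.15 and 5.26 in WT arrays 1, 2 and 3. The groups overlapped, and WT array 1 lay at the Satb1-/- level. The difference was -0.11 (SE 0.10, 95% interval -0.34 to 0.13, limma adjusted p = 0.85). The cells were given LIF in the medium, so the transcript does not measure the ligand they were exposed to.

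The receptor gene Lifr read 7.74, 7.63 and 7.70 in Satb1-/- arrays, against 7.33, 7.48 and 7.45 in WT arrays. All Satb1-/- values lay above all WT values, yet the difference of 0.27 (SE 0.10, 95% interval 0.05 to 0.50 before adjustment) missed the threshold over all genes (limma adjusted p = 0.34). On the linear scale it is a ratio of 1.21, with an interval of 1.03 to 1.41.

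For Il6st, the gene of the shared chain gp130, the Satb1-/- arrays read 8.11, 8.12 and 8.05 and the WT arrays 7.46, 8.14 and 7.71. The Satb1-/- values lay within 0.066 of each other, while the WT values spanned 0.69, and WT array 2 was the highest of all 6. The difference was 0.32 (SE 0.16, limma adjusted p = 0.538). It was 0.16 without WT array 1 and 0.51 without WT array 2, so its size rests on which WT arrays are counted.

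Osmr, the oncostatin M receptor gene, read 5.29, 5.08 and 5.21 in Satb1-/- arrays and 5.21, 5.37 and 5.10 in WT arrays. The groups covered the same range. Its difference of -0.028 (SE 0.11, 95% interval -0.28 to 0.23, limma adjusted p = 0.978) changed sign to 0.00060 when each array was centred on its median. Lifr and Osmr lie close together on chromosome 15. Of the brighter genes on either side of them, 23 for Lifr and 22 for Osmr because the chromosome end is near, the median difference was 0.063 and 0.095.

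The kinase gene Jak1 read 7.97, 8.15 and 8.07 in Satb1-/- arrays and 7.84, 7.99 and 7.77 in WT arrays. WT array 2 lay above the lowest Satb1-/- array, so the groups overlapped. The difference was 0.20 (SE 0.11, 95% interval -0.04 to 0.44, limma adjusted p = 0.615).

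Stat3, the transcription factor gene that the route ends on, read 8.22, 8.05 and 8.12 in Satb1-/- arrays and 7.89, 7.77 and 8.09 in WT arrays. WT array 3 lay between the Satb1-/- values, and the other WT arrays lay below them. The difference was 0.21 (SE 0.12, 95% interval -0.04 to 0.47, limma adjusted p = 0.607). The arrays measure transcripts, so they hold no value for the phosphorylated STAT3 protein.

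Socs3, the feedback inhibitor gene, read 7.67, 7.89 and 7.81 in Satb1-/- arrays, against 7.23, 7.28 and 7.06 in WT arrays. The lowest Satb1-/- value lay above the highest WT value. The means were 7.79 ± 0.11 in Satb1-/- and 7.19 ± 0.11 in WT arrays (SD, n = 3 each), and the difference of 0.60 (SE 0.11, 95% interval 0.35 to 0.85, limma adjusted p = 0.0287) is a ratio of 1.52 on the linear scale (interval 1.28 to 1.80). Socs3 stood at rank 198 of 19938 genes by p-value.

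The second Socs3 probe set, which the annotation ties to a single transcript record, gave lower readings of 5.84, 6.27 and 5.90 in Satb1-/- arrays and 5.57, 5.78 and 5.40 in WT arrays. Here too the groups did not overlap. Its difference of 0.42 (SE 0.14) did not pass the threshold when every probe set was tested as a feature of its own (limma adjusted p = 0.281), while the first probe set did (adjusted p = 0.0315). With the mean of both as the value of the gene, the difference was 0.51 (adjusted p = 0.0927).

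The size of the Socs3 difference moved little between processing choices and its call moved a great deal. Over 15 alternatives the difference lay between 0.51 and 0.66, and the adjusted p between 0.0133 and 0.174. The call was lost in 8 of them. It was lost without Satb1-/- array 1-1 (0.66, adjusted p = 0.0755), 1-2 (0.55, adjusted p = 0.165) or 2-1 (0.59, adjusted p = 0.174), and without WT array 1 (0.62, adjusted p = 0.0651). When the arrays of clones 1-1 and 1-2 were averaged into 1 sample, because their names share a first number, the difference was 0.61 (adjusted p = 0.101).

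**Figure D2:**
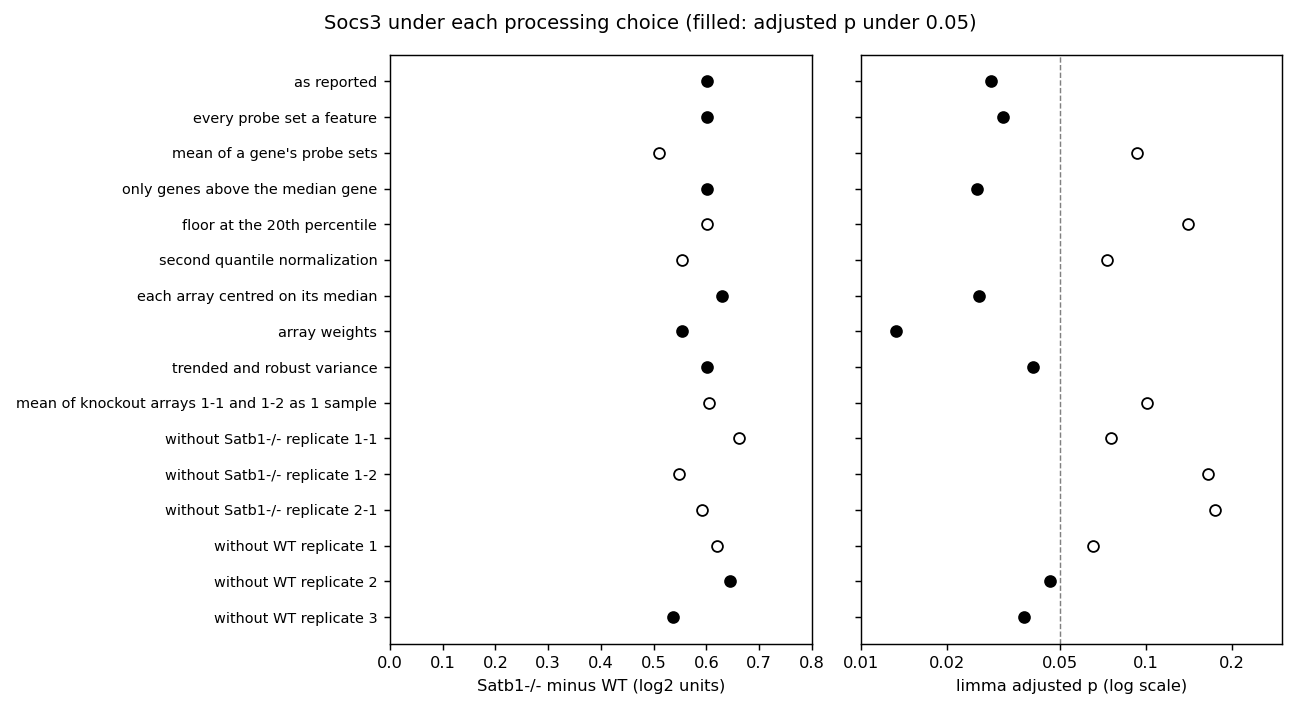
Log2 difference of Socs3 (Satb1-/- minus WT, left) and its limma adjusted p on a log scale (right) as reported and under each of 15 alternatives; filled points have an adjusted p under 0.05, which the dashed line marks. The differences lie between 0.51 and 0.66, and 8 alternatives lie right of the dashed line.

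The STAT3 target Pim1, a survival kinase gene, read 8.18, 8.70 and 8.42 in Satb1-/- arrays and 8.10, 8.61 and 8.31 in WT arrays. The groups covered nearly the same range, with a spread of 0.51 between arrays in both. The difference of 0.091 (SE 0.16, 95% interval -0.27 to 0.45, limma adjusted p = 0.939) was smaller than the SD within either group, 0.26 each.

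Its relative Pim3 read 6.90, 7.31 and 6.97 in Satb1-/- arrays and 6.83, 7.27 and 6.97 in WT arrays. Again 1 array of each group stood above the others. The difference was 0.039 (SE 0.15, 95% interval -0.29 to 0.37, limma adjusted p = 0.976), and a second quantile normalization turned it to -0.0038. For both kinase genes the interval reaches a ratio of 1.29 or more, so a rise of the size seen for Bcl3 cannot be told from no change with these arrays.

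Bcl3 read 6.43, 6.59 and 6.46 in Satb1-/- arrays, against 6.16, 6.22 and 6.30 in WT arrays. All Satb1-/- values lay above all WT values. The difference was 0.26 (SE 0.10, 95% interval 0.03 to 0.50 before adjustment), a ratio of 1.20, and it missed the threshold over all genes (limma adjusted p = 0.373).

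**Figure D3:**
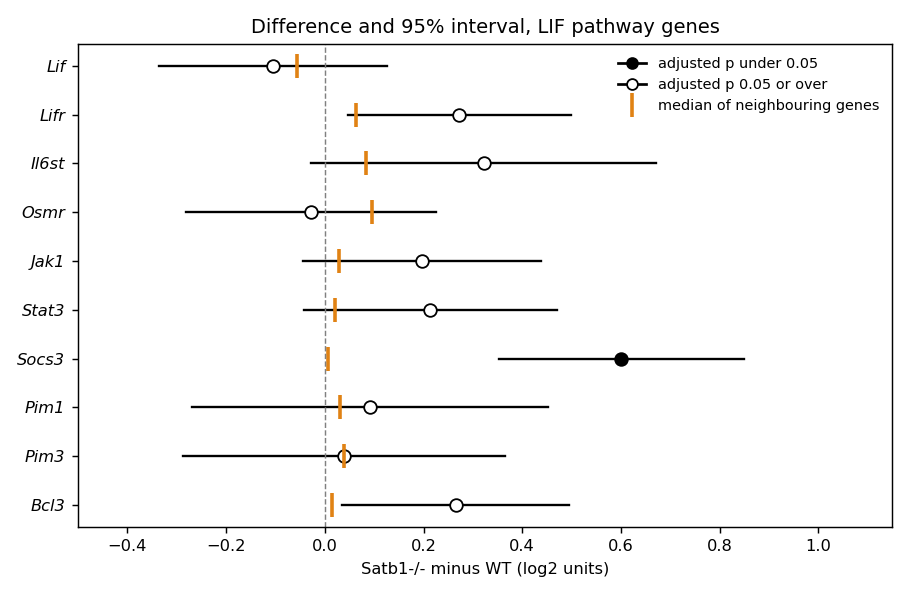
Log2 difference (Satb1-/- minus WT) of each LIF pathway gene with its 95% interval before adjustment; the filled point, Socs3, has a limma adjusted p under 0.05, and orange bars give the median difference of up to 30 neighbouring brighter genes. The neighbour medians lie between -0.056 and 0.095, and the Socs3 interval lies right of its neighbours' median.

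Each gene was also set beside its neighbours on the chromosome, the 15 brighter genes on either side, because neighbouring genes moved together at some other places, such as around Ptpn6 below. Around Socs3 on chromosome 11 the neighbours had a median difference of 0.0063, 15 of 30 were above 0 and 1 was called higher. Around Stat3, on the same chromosome, the median was 0.021, around Bcl3 on chromosome 7 it was 0.014, and around Lif, also on chromosome 11, it was -0.056. Around Il6st on chromosome 13 it was 0.084, around Jak1 on chromosome 4 it was 0.028, around Pim1 on chromosome 17 it was 0.031 and around Pim3 on chromosome 15 it was 0.039. None of the 10 genes had a neighbour median beyond 0.1 in either direction.

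Within each group, the arrays that read highest were often the same from gene to gene. Satb1-/- array 1-2 was the highest of its group and WT array 2 the highest of its group in 5 of the 10 genes (Il6st, Jak1, Socs3, Pim1 and Pim3), which was so for 11.2% of all genes. Pim1 deviated from its group mean by -0.25, 0.26 and -0.014 in the Satb1-/- arrays and by -0.24, 0.27 and -0.030 in the WT arrays. Pim3 deviated by -0.16, 0.25 and -0.091 in the Satb1-/- arrays and by -0.19, 0.24 and -0.057 in the WT arrays. After each gene was centred on its own mean, Pim3 was the 8th nearest of 19937 genes to Pim1 by root mean square difference over the 6 arrays (0.062). Pim1 was the 10th nearest to Pim3. The nearest to Pim1 was E030011O05Rik (0.027) and the nearest to Pim3 was Map3k4 (0.042), both outside the lists and the naming rule. The labels do not pair arrays across the groups, and what the arrays share was not tested. Stat3 did not follow this pattern: array 1-2 and WT array 2 were the lowest of their groups.

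**Figure D4:**
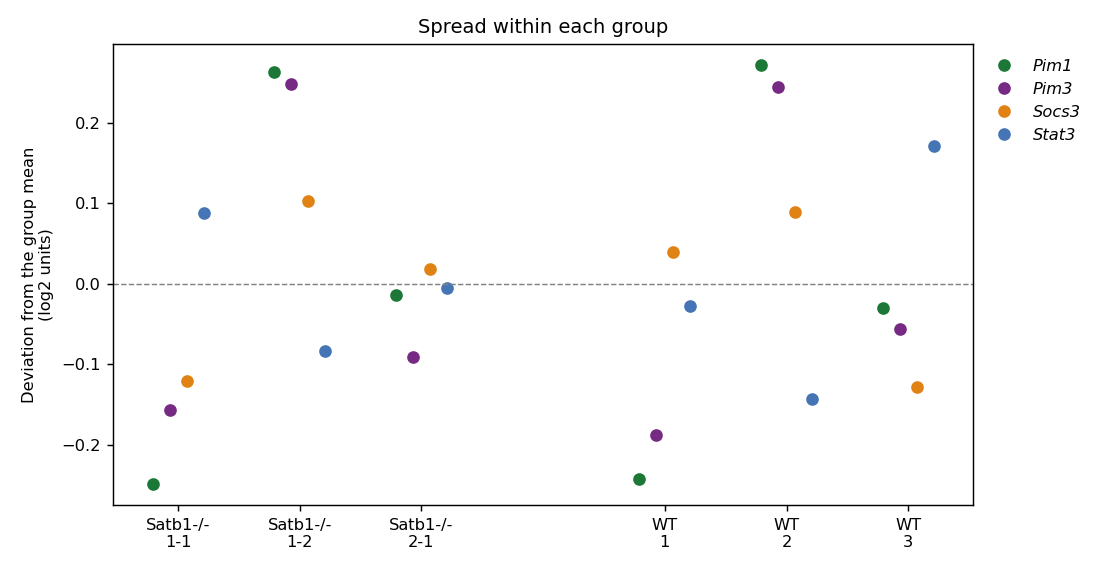
Deviation of each array from its own group mean (log2 units) for Pim1, Pim3, Socs3 and Stat3, with Satb1-/- arrays on the left and WT arrays on the right. Pim1 and Pim3 stand 0.24 to 0.27 above the group mean in Satb1-/- array 1-2 and WT array 2, where Stat3 is the lowest of its group.

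The genes whose pattern over the 6 arrays was nearest to that of Socs3, by the same measure, were Klf5, Sec24a and Anp32a. The measure takes in the difference between the groups. Genes near Socs3 by it were therefore bound to be higher in Satb1-/- arrays, and their tests are no separate support. Klf5, which encodes a Kruppel-like factor of ES cell self-renewal, was nearest at a root mean square difference of 0.058. It read 8.75, 8.87 and 8.88 in Satb1-/- arrays, against 8.27, 8.25 and 8.19 in WT arrays (difference 0.60, SE 0.10, limma adjusted p = 0.0166). It missed the threshold without Satb1-/- array 1-1, 1-2 or 2-1 (0.64, 0.58 and 0.57, adjusted p = 0.0669, 0.107 and 0.129), with a floor on dim values (adjusted p = 0.0593) and with arrays 1-1 and 1-2 averaged (adjusted p = 0.0693). The floor, at 3.65, lay below every Klf5 value and left its difference at 0.60. The neighbours of Klf5 on chromosome 14 had a median difference of 0.013. Sec24a, which encodes a coat protein of vesicle transport, differed by 0.70 (adjusted p = 0.0107), and its neighbours on chromosome 11 by a median of 0.43; it missed the threshold without Satb1-/- array 1-2 or 2-1 (0.69 and 0.68, adjusted p = 0.0813 and 0.087), with the floor (adjusted p = 0.101) and with 1-1 and 1-2 averaged (adjusted p = 0.0549). Anp32a differed by 0.56 (adjusted p = 0.0605).

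The other genes known as LIF or STAT3 targets split. Of 16 measured, 3 rose (Klf4, Klf5 and Tfcp2l1), 0 fell, and 13 did not pass the test. The median difference of the 16 was -0.092, against -0.0044 over all genes, and 10 of them were below 0. The 3 that rose encode transcription factors of the naive ES cell state.

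Tfcp2l1 read 7.74, 8.22 and 7.995 in Satb1-/- arrays, against 6.88, 7.32 and 7.10 in WT arrays, with no overlap (difference 0.88, SE 0.15, limma adjusted p = 0.0182). Klf4 read 7.63, 7.97 and 7.80 in Satb1-/- arrays, against 6.65, 6.47 and 7.36 in WT arrays (difference 0.97, SE 0.20, limma adjusted p = 0.0483). WT array 3 was the highest of the WT arrays for Klf4, and without it the difference was 1.24. Leaving out any other single array ended the Klf4 call (0.80 to 1.05, adjusted p 0.103 to 0.225). So did testing every probe set (adjusted p = 0.0564), the mean of probe sets (0.0507), centring each array (0.0609), the floor (0.354) and averaging arrays 1-1 and 1-2 (0.181). Tfcp2l1 missed the threshold without Satb1-/- array 1-2 (0.77, adjusted p = 0.107) or 2-1 (0.88, adjusted p = 0.111) or WT array 1 (0.78, adjusted p = 0.073), and with the floor (adjusted p = 0.226). The neighbours of Tfcp2l1 had a median of 0.071 and those of Klf4 a median of 0.21, with 26 of 30 above 0.

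The other listed STAT3 targets did not pass the test (limma), which does not show that they were unchanged. At an unadjusted p under 0.05, 4 of the 16 were higher (Klf4, Klf5, Tfcp2l1 and Sgk1) and 1 lower (Mcl1). Of all genes, 5.92% and 4.55% were. Mcl1 differed by -0.34 (limma adjusted p = 0.185) and Fos by -0.24 (adjusted p = 0.482). In these 2, named after their values were seen, all Satb1-/- arrays lay below all WT arrays. Myc, the growth regulator gene, read 6.46, 5.78 and 6.06 in Satb1-/- arrays, against 6.22, 5.80 and 7.36 in WT arrays. The difference of -0.36 (SE 0.33, limma adjusted p = 0.829) rested on WT array 3 and was 0.089 without it. Junb, a subunit gene of the AP-1 factor, differed by -0.13 (adjusted p = 0.799) among neighbours on chromosome 8 with a median of -0.35. Gbx2, a homeobox gene, differed by -0.067 (adjusted p = 0.96), and that sign turned with array weights. Of the 7 related genes with the motif printed above, none passed the test (limma): Sgk1 differed by 0.50 (adjusted p = 0.364), Icam1 by 0.26, Cish by 0.15, Il31ra by -0.057, Zfp36 by -0.12, Irf1 by -0.20 and Gab1 by -0.65 (adjusted p = 0.0558). Neither Klf4 nor Tfcp2l1 had the motif in its windows, and Klf5 had no entry, so it was not searched. Of the genes called higher that had an entry 9.03% had the motif, against 9.55% of all genes with an entry.

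**Figure D5:**
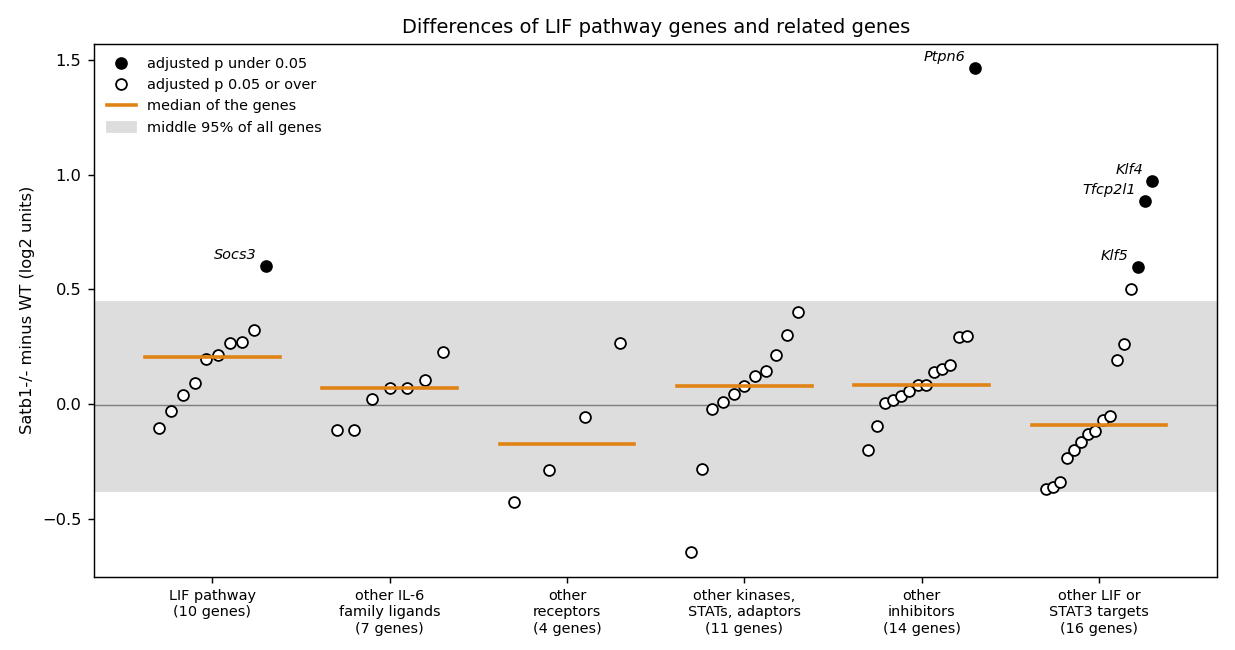
Log2 difference (Satb1-/- minus WT) of each gene in the LIF pathway set and in 5 lists of related genes, ordered within each list; filled, named points have a limma adjusted p under 0.05, orange bars are medians, and the grey band holds the middle 95% of all genes. Socs3, Ptpn6, Klf4, Klf5 and Tfcp2l1 are filled and lie above the band.

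Among 14 other inhibitors of the route, 1 rose, 0 fell and 13 did not pass the test, with a median difference of 0.084. The gene that rose was Ptpn6, which encodes the phosphatase SHP-1. It read 8.56, 8.56 and 8.63 in Satb1-/- arrays, against 7.16, 7.25 and 6.94 in WT arrays, a difference of 1.46 (SE 0.11, limma adjusted p = 0.000331) that held without any 1 array (1.38 to 1.53). Ptpn6 lies on chromosome 6, where 30 of its 30 neighbours were higher with a median of 0.88 and 21 of them were called. The other SOCS family genes under the naming rule did not pass: Socs2 differed by 0.30 (adjusted p = 0.435), Cish by 0.15 (adjusted p = 0.817) and Socs1 by -0.093 (adjusted p = 0.907).

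None of 11 other kinases, STATs and adaptors passed the test (limma), and the median difference was 0.082. At an unadjusted p under 0.05, 2 were higher (Stat6 and Yes1) and 1 lower, against 5.92% and 4.55% of all genes. The lower one was Gab1, which encodes an adaptor between gp130 and the ERK route; these 3 were named after their values were seen. It read 8.95, 8.86 and 8.91 in Satb1-/- arrays, against 9.39, 9.39 and 9.87 in WT arrays (difference -0.65, SE 0.14, limma adjusted p = 0.0558), among neighbours on chromosome 8 with a median of -0.33. The kinase gene Jak2 differed by 0.21, Tyk2 by 0.14, and Ptpn11, the gene of the phosphatase SHP-2, by 0.045 (adjusted p = 0.709, 0.779 and 0.956). The differences of Stat5a (-0.021) and Stat5b (0.0088) were within 0.03 of 0 and changed sign with the scaling.

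Of 7 other ligands and 4 other receptors of the IL-6 family, none passed the test (limma). At an unadjusted p under 0.05, 1 receptor gene was lower and 0 were higher, against 4.55% and 5.92% of all genes. That gene was Cntfr, of the ciliary neurotrophic factor receptor, which read 4.999, 4.955 and 4.647 in Satb1-/- arrays and 5.60, 5.15 and 5.13 in WT arrays (difference -0.43, SE 0.15, limma adjusted p = 0.292). Il6ra, of the interleukin-6 receptor, differed by 0.27 (adjusted p = 0.486). Osm, the oncostatin M gene and a neighbour of Lif, differed by -0.11 (limma adjusted p = 0.82), close to the -0.11 of Lif, and neither passed the test. Osm was dim, at 3.72 in Satb1-/- and 3.84 in WT arrays, where the median gene averaged 5.05. Lif lay near the median gene, at 5.04 in Satb1-/- and 5.15 in WT arrays.

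Of the series as a whole, 184 genes were higher and 95 lower in Satb1-/- cells, or 159 and 47 with each array centred on its median and 18 and 4 with a floor on dim values. Array medians lay between 4.69 and 4.85. Satb1 itself differed by -0.67 (SE 0.12, limma adjusted p = 0.022), a call lost without WT array 1 or any single Satb1-/- array (-0.72 to -0.62), with the floor (adjusted p = 0.156) and with arrays 1-1 and 1-2 averaged (adjusted p = 0.118). The labels do not tell whether its probes sit in the part that was deleted. All 10 ES cell markers were brighter than the median gene. Of the 10, 2 rose, Nanog (1.09, adjusted p = 0.00109, lost with the floor at 0.0593) and Esrrb (0.56, adjusted p = 0.0435), and 0 fell (limma). The call of Esrrb was not followed through the alternatives. The median difference of the 10 markers was 0.092, and 5 were above 0 and 5 below. The groups did not overlap for 3 with Satb1-/- above WT and 3 with Satb1-/- below WT, against 8.18% and 6.97% of all genes. Pou5f1, the Oct4 gene, averaged 9.83 in Satb1-/- and 10.22 in WT arrays, Sox2 averaged 10.24 in Satb1-/- and 9.94 in WT arrays, and Nanog 10.95 in Satb1-/- and 9.87 in WT arrays. The neighbours of Nanog on chromosome 6 had a median difference of 0.98, with 29 of 30 above 0 and 25 called higher. Those of Esrrb on chromosome 12 had a median of -0.0093.

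Feeder cells are fibroblasts, which are known to make LIF themselves. The mean level of 19 feeder fibroblast markers was 6.46, 6.19 and 6.35 in Satb1-/- arrays 1-1, 1-2 and 2-1, against 6.08, 6.19 and 6.03 in WT arrays 1, 2 and 3. Of the 19, 18 were higher on average in Satb1-/- arrays, against 48.5% of all genes, and 0 passed the test (limma). At an unadjusted p under 0.05, 3 were higher (Col1a2, Thy1 and Postn, named after their values were seen) and 0 lower. Of all genes, 5.92% and 4.55% were. The median difference of the 19 was 0.18. Col1a1 averaged 8.07 in Satb1-/- and 7.95 in WT arrays and Col3a1 6.18 in Satb1-/- and 6.10 in WT arrays, so fibroblast transcripts were present in both groups. The part of feeder cells in the differences of Socs3, Lifr, Il6st and Bcl3 was not tested.

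Among 10 trophectoderm markers 2 fell and 0 rose (limma), 4 differences were above 0 and 6 below, and the median was -0.20. The 2 that fell were the keratin genes Krt8 (-2.72) and Krt18 (-2.48). At an unadjusted p under 0.05, 3 were higher and 3 lower, against 5.92% and 4.55% of all genes. The 3 higher ones, Eomes (0.55, adjusted p = 0.068), Tead4 (0.43, adjusted p = 0.111) and Tfap2c (0.33, adjusted p = 0.246), had all Satb1-/- arrays above all WT arrays. The neighbours of Tead4 on chromosome 6 had a median difference of 0.83, with 26 of 30 above 0. Those of Eomes had a median of 0.098 and those of Tfap2c a median of 0.0053. The mean level of the trophectoderm markers was 5.45, 5.61 and 5.46 in Satb1-/- arrays, against 5.84, 5.83 and 6.35 in WT arrays, and without Krt8 and Krt18 it was 5.28, 5.36 and 5.27 in Satb1-/- arrays, against 5.20, 5.16 and 5.47 in WT arrays. WT array 3, the highest in both, was also the array with the highest Myc and Klf4 values of its group. It was the highest WT array for 33.8% of all genes, and for 52.7% of 9949 genes brighter than the median gene with a known position. The defining factor Cdx2 read 4.33, 4.48 and 4.30 in Satb1-/- arrays and 4.54, 4.42 and 4.84 in WT arrays. Among 10 primitive endoderm markers 1 rose, Lama1 (1.53), and 0 fell (limma), 4 differences were above 0 and 6 below, and the median was -0.038. At an unadjusted p under 0.05, 2 were higher (Lama1 and Pdgfra) and 1 lower (Col4a1), against 5.92% and 4.55% of all genes. Pdgfra differed by 0.53 (limma adjusted p = 0.241), Col4a1 by -0.43 (adjusted p = 0.195) and Gata4 by -0.27 (adjusted p = 0.529). The neighbours of Col4a1 on chromosome 8 had a median difference of -0.28, with 0 of 30 above 0. The mean level of the primitive endoderm markers was 5.29, 5.32 and 5.18 in Satb1-/- arrays and 5.24, 5.11 and 5.09 in WT arrays. Without Lama1 it was 5.12, 5.08 and 4.96 in Satb1-/- arrays and 5.20, 5.06 and 5.01 in WT arrays. Marker genes outside the naming rule were named after their values were seen. Their calls, those of Krt8, Krt18 and Lama1 among them, were not followed through the alternatives. The part of these cell types in the results was not tested.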

How the data were processed

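Total RNA of 6 samples was the starting material, the label was biotin, and 1-colour arrays were used. The deposited table holds log2 expression values for 35557 probe sets, which the authors computed with RMA, per the submitters' processing notes (RMA corrects background, normalizes across arrays and summarises probes); the sources used here do not state its version and settings or the genome build. The number of arrays limits the precision, and differences of dim genes are compressed. Platform annotation gave 1 symbol to 21789 probe sets, several to 1621 and none to 12147; the last 2 kinds were not used. The brightest probe set of each gene was kept (19938 genes). Satb1-/- and WT were compared with limma 3.58.1 in R 4.3.3 (lmFit, eBayes, without covariates or filter), which was tested on simulated data. RefSeq genes of GRCm38.p6 gave chromosomes and gene order, by Entrez ID. The 10 genes, the lists and the rule for named genes were chosen with earlier results of these data known. The rule took the 10 genes, Satb1, the related genes that passed, 18 fixed related genes where measured, the 3 genes nearest in pattern to each of the 10 that passed, and 5 cell type checks. Some listed genes were not analysed here. The alternatives were 9 processing choices and leaving out each of 6 arrays.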

Additional observations from a re-analysis of the deposited data

How the results depend on the processing

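The Socs3 difference stayed above 0 under all 15 alternatives and its call was lost in 8; the count of 1 higher LIF pathway gene became 0 with the mean of a gene's probe sets, a floor at the 20th percentile, a second quantile normalization, and arrays 1-1 and 1-2 averaged into 1 sample; leaving out 1 array gave 0 to 1. No alternative gave a lower one (0 to 0 without 1 array). The count of 184 higher and 95 lower genes was 18 and 4 with the floor, which leaves many genes without spread, 373 and 235 under array weights, 90 and 27 after averaging 1-1 and 1-2, 242 and 183 after the second quantile normalization and 159 and 47 with each array centred; leaving out 1 array gave 74 to 356 and 19 to 124. The floor, at 3.65, lay below every value of Socs3, Klf4, Klf5, Tfcp2l1, Sec24a, Nanog and Satb1. It left their differences unchanged, though their calls were lost with it. Of the 10 genes, Lif, Lifr, Il6st, Jak1, Stat3, Socs3 and Bcl3 kept their direction under every alternative. Signs turned for uncalled genes. Array weights gave Pim1 -0.056, Pim3 -0.11, Gbx2 0.17 and Socs1 0.030; the second quantile normalization gave Pim3 -0.0038 and Stat5b -0.012; centring gave Osmr 0.00060 and Stat5a 0.0070; averaging 1-1 and 1-2 gave Stat5b -0.0018. Leaving out 1 array gave -0.040 to 0.23 for Pim1, -0.086 to 0.16 for Pim3, -0.092 to 0.043 for Osmr, -0.28 to 0.065 for Gbx2, -0.69 to 0.089 for Myc, -0.057 to 0.023 for Stat5a, -0.048 to 0.044 for Stat5b and -0.0075 to 0.091 for Ptpn11. Gab1 passed without dim genes (adjusted p = 0.0442), after the second quantile normalization (0.0157), with array weights (0.0206) and with a trended variance (0.0433). It also passed without WT array 3, where its difference was smaller (-0.48, limma adjusted p = 0.043). The cause of these changes was not tested. No paired analysis was possible because the groups share no replicate numbers.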
